A study of Mus musculus with 6 samples.

Results

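The genes described here are the odorant receptors Olfr543 to Olfr599 of the mouse class I cluster. They were chosen by symbol, with or without the pseudogene suffix -ps, leaving out Olfr544 and Olfr558, which gave 53 members among the 40273 genes of the table. Their symbols, and not their measured values, chose them. They lie on chromosome 7 between 102476579 and 103339564 (GRCm38), a span of 863 kb, with 34 members on the plus strand and 19 on the minus strand. The annotation calls 44 of them protein coding and 9 pseudogenes.

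The libraries were made from total RNA of the olfactory mucosa, the nasal lining that holds the olfactory sensory neurons, depleted of ribosomal RNA and kept strand specific. The 3 control animals were wildtype and the 3 deletion animals carried the genotype delta eC. All 6 were males of the strain 129S6;C57BL/6J at P30 (postnatal day 30). The deleted element eC measures 1005 bp and lies at chr7:102916999-102918004. The series title calls it an enhancer of class I odorant receptors, and the comparison asks how receptor RNA differs when it is gone. The build of these coordinates is not named and they were read as GRCm38, where the element falls among the members, with 26 of them below it, 26 above it and the 5′ end of Olfr571 inside it.

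Odorant receptors are G protein-coupled receptors on the cilia of olfactory sensory neurons, where binding of an odorant activates the G protein subunit Gnal and the cyclase Adcy3. A mature neuron expresses a single receptor gene from a single allele. Class I receptors are the family that mammals share with fish, and in the mouse they sit in one cluster and are used mainly by neurons of the dorsal olfactory epithelium. In whole mucosa, fewer neurons that choose a receptor and less RNA per neuron cannot be told apart.

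Libraries held 30342763 to 50906277 reads assigned to genes, of which 1636 to 3385 reads fell on the members. The libraries parted into 2 sets that the labels do not explain. Set A (control 1, deletion 1 and deletion 2) had reads on 26564 to 27879 genes, and set B (control 2, control 3 and deletion 3) on 36197 to 37456 genes. Member RNA moved with the set: its median log2 difference of set B over set A was 1.09, and 25 of 38 tested members had all 3 set B libraries above all 3 set A libraries, against 15.8% of all genes tested. In 0 members were all set A libraries above all set B libraries, against 19.9%. The summed normalized count of 7 markers of mature olfactory sensory neurons lay between 354769 and 412509 in set A and between 434177 and 477805 in set B, with 0 of the 7 at 0. Marker sums of immature neurons were also higher in set B (20712 to 23016 in set A, 23927 to 25349 in set B), as were those of skeletal muscle (25.4 to 42.1, 54.0 to 88.1) and of bone and cartilage (2187 to 2694, 3038 to 3144). Marker sums were lower in set B for horizontal basal cells (3900.3 to 5133 in set A, 3197 to 3643 in set B), globose basal cells (974 to 1139.9, 673 to 892), Bowman gland (37553 to 48385, 30046 to 37504), respiratory ciliated cells (18201 to 21452, 14116 to 17634) and immune cells (5905 to 8593, 3940.3 to 5053), and for ventral zone markers (15318 to 15756, 12974 to 14939). Such sums rest mostly on the most abundant genes of a list, and 3 genes went against theirs. The ciliated marker Tekt1 was higher in set B (1853 to 1975 in set A, 2003 to 2064 in set B). The bone marker Bglap was lower in set B (511 to 635, 361 to 483), and the ventral marker Ncam2 had a log2 of 0.07 (B over A). The part of these marker differences in the results on the members was not tested. Values from a fit with the set as a term, or within each set, are given for the members with the largest differences. P-values of the main fit weigh a difference against the spread between the 3 animals of a group, which there includes the difference between the sets. Set A held 1 control and 2 deletion libraries, and set B 2 controls and 1 deletion library. In genes higher in set B, part of the set difference therefore enters the main log2 fold changes as a decrease. The median log2 fold change of the tested members (deletion over control) was -0.66 in the main fit and -0.34 with the set as a term. Fits of 1 set alone have a single library in 1 group, whose spread was assumed. The ranges of adjusted p over the alternatives include those fits.

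Values are normalized counts, which are reads divided by a size factor per library. Of the 53 members, 38 had a normalized count of at least 10 in at least 3 libraries and were tested with limma on log2(normalized count + 1) together with all 20368 genes that passed this filter. A call is a Benjamini-Hochberg adjusted p under 0.05 over all those genes, and log2 fold changes are deletion over control with their SE.

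Members resemble each other in sequence, which bears on how reads were assigned to them. Of the 53 members, 24 had no 50-base stretch of their annotated transcripts in common with another gene, and 16 shared over 10% of such stretches. The pairs Olfr597 with Olfr598 and Olfr585 with Olfr583 are shown because 1 gene of each pair was called in 1 of the fits. Olfr597 and Olfr598 were 96.9% identical over their coding sequence, and Olfr585 and Olfr583 were 96.1% identical. The stretches of 120 coding bases come from GENCODE vM21 transcripts (GRCm38, plus strand), at chr7:103320414-103320533 for Olfr597, chr7:103328501-103328620 for Olfr598, chr7:103097743-103097862 for Olfr585 and chr7:103051300-103051419 for Olfr583. Capitals mark the bases that differ within a pair, 2 in the first pair and 4 in the other.
Olfr597: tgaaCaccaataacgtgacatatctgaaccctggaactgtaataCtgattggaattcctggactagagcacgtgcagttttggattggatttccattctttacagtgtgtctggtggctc
Olfr598: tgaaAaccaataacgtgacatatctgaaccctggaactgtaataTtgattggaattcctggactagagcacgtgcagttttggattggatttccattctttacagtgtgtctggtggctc
Olfr585: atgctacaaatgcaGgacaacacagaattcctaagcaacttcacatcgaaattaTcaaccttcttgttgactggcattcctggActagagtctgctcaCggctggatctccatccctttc
Olfr583: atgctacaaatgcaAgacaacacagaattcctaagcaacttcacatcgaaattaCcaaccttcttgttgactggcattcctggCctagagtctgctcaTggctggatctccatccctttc

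RefSeq promoter windows of 300 bases (GRCm38.p6) were found for 35 of the 53 members, but in 27 of them the listed gene start is the start codon. The other 8 (Olfr543, Olfr550, Olfr551, Olfr556, Olfr557, Olfr566, Olfr570 and Olfr599) sit at the start of an annotated transcript. Only in Olfr566 is this also the 5′ end of the gene (102858765). In the rest it lies inside the gene, so the bases before it can be intron or exon. Olfr570 has it at 102900342 and its gene end at 102894577, and Olfr543 at 102477902 and 102481679. In Olfr599 all 250 bases overlap an exon of the gene. The 250 bases before the start are shown for 3 of the 8: Olfr570 and Olfr566, the nearest to the element, and Olfr543, the farthest. They lie at chr7:102900092-102900341 (Olfr570, plus strand), chr7:102858766-102859015 (Olfr566, minus strand) and chr7:102477903-102478152 (Olfr543, minus strand). Capitals mark TATAAA, the core of a TATA box, and TAATTA, a core bound by homeodomain proteins such as Lhx2.
Olfr570: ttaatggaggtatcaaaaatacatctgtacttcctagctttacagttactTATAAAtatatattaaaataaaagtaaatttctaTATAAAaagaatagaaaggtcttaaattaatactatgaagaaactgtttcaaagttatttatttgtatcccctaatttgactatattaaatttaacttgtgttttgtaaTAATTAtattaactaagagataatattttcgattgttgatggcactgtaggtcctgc
Olfr566: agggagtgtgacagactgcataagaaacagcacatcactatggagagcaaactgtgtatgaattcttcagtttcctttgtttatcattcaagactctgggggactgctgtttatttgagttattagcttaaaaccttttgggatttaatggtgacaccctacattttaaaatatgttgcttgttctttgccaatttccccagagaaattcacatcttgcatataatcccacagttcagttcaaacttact
Olfr543: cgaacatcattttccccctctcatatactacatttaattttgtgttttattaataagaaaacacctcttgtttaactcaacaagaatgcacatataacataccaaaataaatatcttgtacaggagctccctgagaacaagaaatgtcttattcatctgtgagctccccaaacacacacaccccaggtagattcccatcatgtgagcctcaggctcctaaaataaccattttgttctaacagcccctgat

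Searched on both strands, TATAAA was present in 14 of the 35 member windows and in 4 of the 8 at a transcript start, against 13.6% of all 32851 windows in the RefSeq table. TAATTA was present in 3 of 35 and 1 of 8 windows, against 5.29% of all windows and TAATTG, another homeodomain core, in 7 of 35 and 0 of 8, against 8.0%. These are matches of letters in a fixed window and no measure of binding.

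In the deletion animals no read of Olfr571, the receptor that the element overlaps, was found, and Olfr597, a receptor 398 kb above the element, fell to a few reads. A further 4 members (Olfr568, Olfr585, Olfr587-ps1 and Olfr543) lay above every control library in all 3 deletion libraries, but were called higher only in some fits. The remaining 32 tested members were not called by limma, with or without the library set as a term. Of these, 29 had a log2 fold change below 0, against 47.5% of all genes tested and 94.1% of Olfr600 to Olfr692. With the set as a term 27 were below 0, against 49.3% and 91.2%.

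Limma called 2 of the 38 tested members lower, against 0.0442% of all genes tested, and 0 higher, against 0.0295%. EdgeR's quasi-likelihood test made the same number of calls, 2 lower (0.0451% of its genes) and 0 higher (0.0301%). A set-adjusted fit is limma with the library set as an added term. It called 2 members lower (0.0933% of all genes) and 4 higher (0.0835%). DESeq2, with the group as its single term, likewise called 2 lower (0.0615%) and 4 higher (0.068%). Without the filter on low values, limma called 2 lower and 2 higher (0.0223% of 40273 genes in either direction), and without deletion 3 it called 4 lower (0.0835%) and 1 higher (0.0344%). At an unadjusted p under 0.05, limma had 11 members lower (1.26% of all genes) and 4 higher (1.44%). The member shares were above the background in each of these rules except for the 0 higher calls of limma and edgeR, and they rest on few genes. Of these, Olfr571 and Olfr597 passed limma's filter only through the controls, and Olfr568, Olfr585 and Olfr587-ps1 only through the deletion libraries. Olfr571 also loses its 5′ end to the deletion itself. The shares are thus a description and were not tested. Of the 38, 6 members had all deletion libraries below all control libraries (4.02% of all genes) and 4 had them all above (3.66%).

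**Figure D1:**
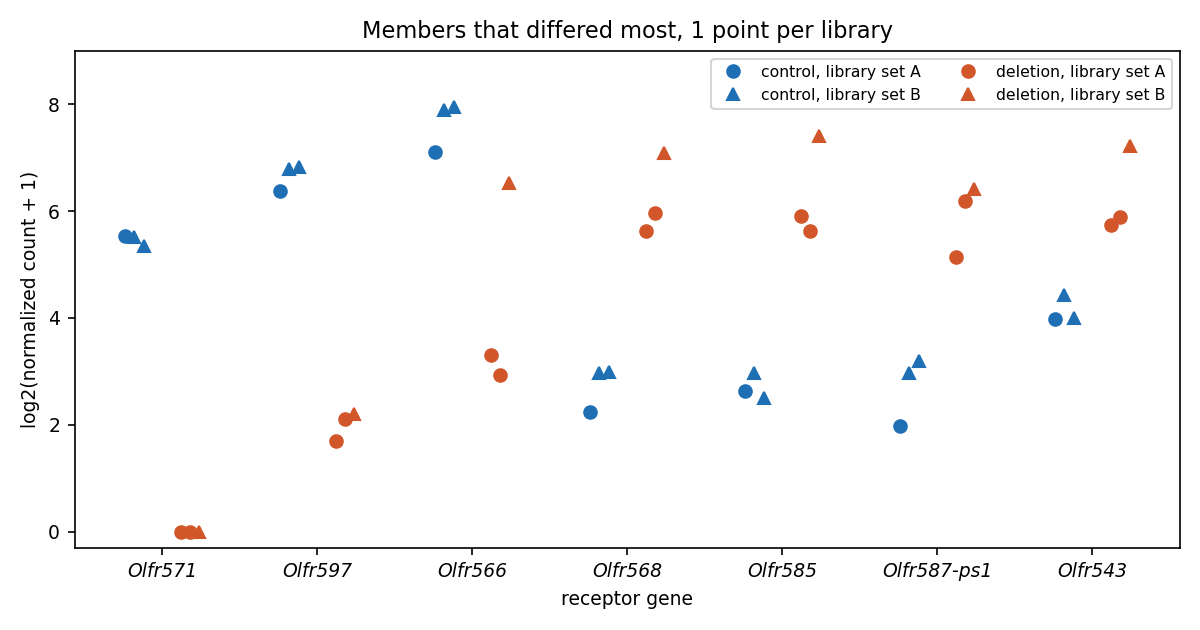
Each point is 1 library and shows log2(normalized count + 1) of the receptor gene named on the x axis, with controls in blue, deletion libraries in orange, circles for library set A and triangles for set B. Olfr571 and Olfr597 are low in all 3 deletion libraries, Olfr566 is low in deletion 1 and 2 and reaches 91.7 normalized counts in deletion 3, and the last 4 genes are higher in all 3 deletion libraries than in any control.

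Olfr571 (ENSMUSG00000043310.3, chromosome 7, 102905090 to 102917536, minus strand) had 45.1, 44.8 and 39.5 normalized counts in control 1, 2 and 3 and 0 in each deletion library. The control values came from 61, 39 and 34 reads and stood close together across both library sets, whereas no deletion library had a read. With a floor of 3 reads summed over the deletion group, Olfr571 was at least 44.2-fold lower. It was called lower (limma, adjusted p = 0.00749), and in the set-adjusted fit the adjusted p was 0.000231 (limma). The fitted log2 difference was -5.53 within set A and -5.43 within set B. Without control 1, 2 or 3 it did not pass (limma, adjusted p = 0.117, 0.284 and 0.185, with 6.72e-07 to 0.284 over all its alternatives), nor in set A alone with its 1 control (adjusted p = 0.12). Since the deletion removes its 5′ end, its level bears on the genotype labels, and all 6 libraries went with theirs. Between the sets it differed by a log2 of only -0.05 (B over A).

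Olfr597 (ENSMUSG00000073952.4, 103316315 to 103322799, plus strand) had 82.1, 109 and 113 normalized counts in control animals and 2.24, 3.31 and 3.62 in the deletion libraries. Each deletion library held 3 reads of the gene, against 111, 95 and 97 in the controls, and the groups did not overlap. The mean was 33.1-fold lower in the deletion animals, with a log2 fold change of -4.66 ± 0.31 (limma, adjusted p = 0.00205). Without control 2 the fold change was -4.60 and did not pass (limma, adjusted p = 0.0528, with 7.64e-14 to 0.273 over its alternatives, the highest in set A alone with its 1 control). The log2 difference was -4.54 in the set-adjusted fit, -4.47 within set A and -4.60 within set B, close to the value over all libraries.

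Olfr598, the near copy of Olfr597 shown above, had 145, 276 and 297 normalized counts in control animals and 94.9, 162 and 288 in the deletion libraries. Its groups overlapped and it was not called (log2 fold change -0.47 ± 0.41, limma, adjusted p = 0.982). Of the 50-base stretches of Olfr597, 20.8% also occur in another gene, chiefly Olfr598, so a part of the reads of either could belong to its copy. How such reads were treated is not given in the sources used here.

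Olfr568 (ENSMUSG00000073965.1, 102877122 to 102878063, plus strand), 38.9 kb below the element, had 3.70, 6.89 and 6.98 normalized counts in control animals and 48.6, 61.8 and 135 in the deletion libraries. These came from 5 or 6 reads in each control and 56 to 112 reads in each deletion library, and every deletion library was above every control. The mean was 14.0-fold higher in the deletion animals. The log2 fold change was 3.50 ± 0.44 and narrowly missed the threshold (limma, adjusted p = 0.0603), while in the set-adjusted fit it was 3.84 ± 0.28 and passed (limma, adjusted p = 0.000405, with 5.76e-07 to 0.397 over its alternatives). It was 3.57 within set A and 4.10 within set B. No 50-base stretch of the gene occurs in another gene.

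Olfr585 (ENSMUSG00000078080.4, 103097720 to 103098749, plus strand) lies 180 kb above the element. It had 5.17, 6.89 and 4.65 normalized counts in control animals and 59.0, 48.6 and 168 in the deletion libraries. The groups did not overlap, and deletion 3 was the highest library. The mean was 16.5-fold higher in the deletion animals. The log2 fold change of 3.61 ± 0.48 did not pass (limma, adjusted p = 0.068), and in the set-adjusted fit 3.90 ± 0.37 did (limma, adjusted p = 0.00232, with 4.72e-07 to 0.411 over its alternatives). Without deletion 3, with the group as the single term, it also passed (limma, adjusted p = 0.0426). The log2 difference was 3.14 within set A and 4.66 within set B. Its near copy Olfr583 had 1.48, 1.15 and 0 normalized counts in control animals and 0, 1.10 and 3.62 in the deletion libraries, far below Olfr585 in every deletion library. Of the 50-base stretches, 23.8% of Olfr585 and 30.2% of Olfr583 also occur in another gene, chiefly in each other. A part of the reads of either could thus belong to its copy.

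Olfr587-ps1 (ENSMUSG00000080891.4, 103134376 to 103135323, plus strand), named as a pseudogene, lies 216 kb above the element. It had 2.96, 6.89 and 8.14 normalized counts in control animals and 34.4, 71.8 and 84.5 in the deletion libraries, again without overlap. The mean was 10.6-fold higher in the deletion animals. The log2 fold change of 3.20 ± 0.47 did not pass (limma, adjusted p = 0.122), and in the set-adjusted fit 3.51 ± 0.34 did (limma, adjusted p = 0.0026, with 3.88e-05 to 1.00 over its alternatives). It was 3.68 within set A and 3.33 within set B.

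Olfr543 (ENSMUSG00000044814.5, 102476579 to 102481679, minus strand) is the farthest member at 435 kb below the element. It had 14.8, 20.7 and 15.1 normalized counts in control animals and 52.3, 58.5 and 148 in the deletion libraries. The groups did not overlap, and the mean was 5.13-fold higher in the deletion animals. The log2 fold change of 2.14 ± 0.40 did not pass (limma, adjusted p = 0.396), and in the set-adjusted fit 2.42 ± 0.30 did (limma, adjusted p = 0.0146, with 1.62e-05 to 1.00 over its alternatives). It was 1.83 within set A and 3.00 within set B.

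The authors' deposited table gave an adjusted p for 43 members and placed 4 of them under 0.05: Olfr597 (6e-13), Olfr571 (0.000105), Olfr568 (0.000507) and Olfr587-ps1 (0.00349). Over all genes with an adjusted p in the authors' deposited table, 0.11% were under 0.05. Its log2 values, coded as control over deletion, were 0.598, 0.292, -0.296 and -0.266 for these 4 genes, much smaller in size than those of limma. It gave no p for Olfr543 and Olfr585, whose log2 values were -0.245 and -0.272. In both of them deletion 3 was the highest library, at 148 and 168 normalized counts.

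Of the receptors nearest to the element on either side, 0 were called by limma or edgeR with the group as the single term, Olfr571 aside, and 3 of the 10 (Olfr566, Olfr568 and Olfr569) had an unadjusted p under 0.05 with limma, against 1.26% of all genes lower and 1.44% higher. DESeq2 called 1 of the 10, Olfr568, against 0.068% of its genes called higher, and the set-adjusted fit also called Olfr568 alone (0.0835%). The 5 tested members next to it on the lower side were Olfr570, Olfr569, Olfr568, Olfr566 and Olfr561, and those on the upper side were Olfr572, Olfr575, Olfr576, Olfr577 and Olfr578. Olfr566 (ENSMUSG00000060888.3, 58.2 kb below) had 137, 237 and 247 normalized counts in control animals and 8.96, 6.62 and 91.7 in the deletion libraries. All deletion libraries were below all controls, but deletion 3, of set B, stood far above the other two. The log2 fold change of -3.39 ± 0.84 did not pass (limma, adjusted p = 0.982). It did without deletion 3 (limma, adjusted p = 0.00109), over a range of 0.000244 to 1.00 across its alternatives, and the difference was -3.99 within set A and -1.39 within set B. In the set-adjusted fit it was -2.69 and did not pass (limma, adjusted p = 0.111).

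Olfr570, 15.3 kb below, had 141, 214 and 281 normalized counts in control animals and 80.7, 103 and 272 in the deletion libraries. Olfr569, 26.1 kb below, had 45.8, 96.4 and 100 in the controls and 26.9, 38.6 and 49.5 in the deletion libraries. Olfr561, 140 kb below, had 46.6, 73.5 and 68.6 in the controls and 26.1, 33.1 and 99.0 in the deletion libraries. The groups overlapped in all 3 genes, and in each of them both deletion libraries of set A were below every control. Their log2 fold changes were -0.63, -1.02 and -0.47, and in the set-adjusted fit -0.24, -0.73 and -0.09.

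Above the element, Olfr572, the closest at 6.41 kb, had 34.7, 83.8 and 66.3 normalized counts in control animals and 22.4, 50.8 and 66.4 in the deletion libraries. Olfr575 had 24.4, 42.5 and 45.4 in the controls and 12.7, 14.4 and 70.0 in the deletion libraries. Olfr578 had 137, 234 and 217 in the controls and 65.7, 100.5 and 219.7 in the deletion libraries. In all 3 genes deletion 3 was above the lower control of its own set, and the groups overlapped. Olfr576 had 16.3, 49.4 and 29.1 in the controls and 15.7, 15.5 and 43.5 in the deletion libraries. Olfr577 had 26.6, 66.6 and 61.6 in the controls and 14.2, 21.0 and 61.6 in the deletion libraries. Olfr576 lies on the plus strand and partly covers Olfr577 on the minus strand. Only a strand-aware count parts their reads, and the strand setting is not given in the sources used here. The log2 fold changes of these 5 genes lay between -0.83 (Olfr577) and -0.37 (Olfr576), and in the set-adjusted fit between -0.39 (Olfr578) and 0.07 (Olfr576).

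**Figure D2:**
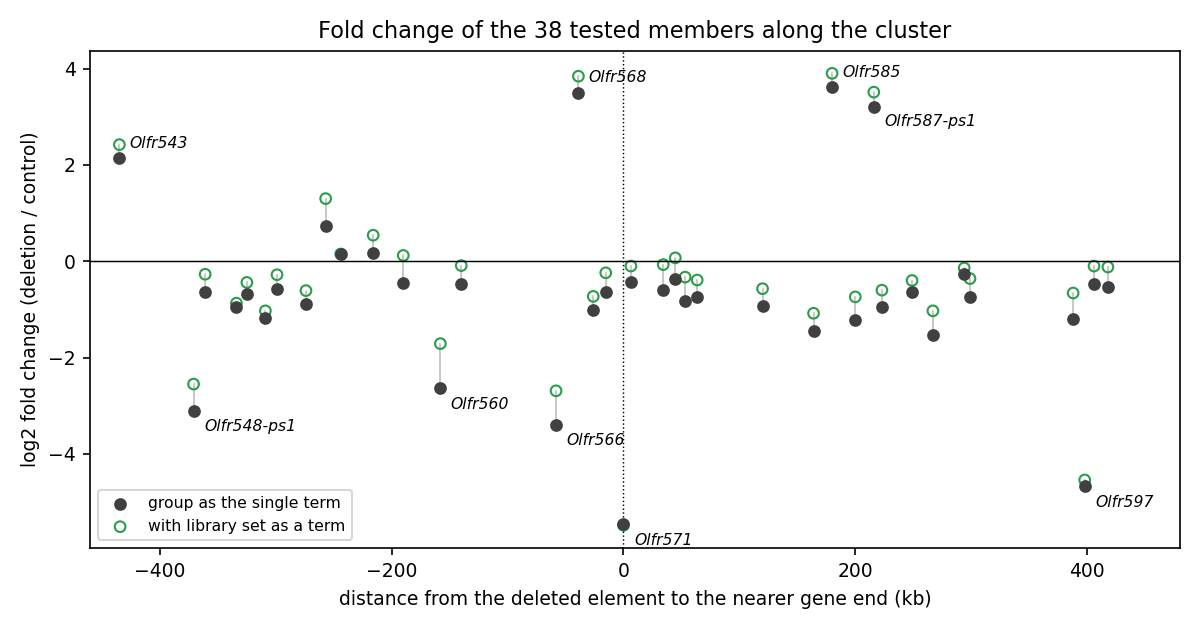
The x axis is the distance in kb from the deleted element to the nearer end of each of the 38 tested members, and the y axis the log2 fold change of deletion over control, filled with the group as the single term and open for the set-adjusted fit. Most members lie slightly below 0 on both sides, and the large differences in either direction are spread from 435 kb below to 398 kb above the element.

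No order of the fold changes by distance was visible. The 18 tested members below it had a median log2 fold change of -0.64 and the 19 above it of -0.75. Over the 38, the median was -0.66, against 0.01 over all genes tested, -0.74 over 68 tested genes of the rest of the cluster (Olfr600 to Olfr692) and -0.18 over 909 tested other Olfr genes. In the set-adjusted fit these medians were -0.34, 0.00, -0.39 and -0.05. Within set A the members' median was -0.56, and within set B -0.17. Of the members, 31 of 38 (81.6%) had a log2 fold change below 0, against 47.5% of all genes tested and 94.1% of Olfr600 to Olfr692. In the set-adjusted fit 29 of 38 were below 0, against 49.3% of all genes tested.

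The spread of the fold changes is given as a description. The SD of the log2 fold change over tested genes was 1.81 in the members, 0.89 in Olfr600 to Olfr692, 0.48 in the other Olfr genes and 0.33 in all genes tested. A log2 fold change beyond 2 in either direction was found in 9 of 38 members (23.7%), 5 of 68 genes of Olfr600 to Olfr692 (7.35%), 8 of 909 other Olfr genes (0.88%) and 0.25% of all genes tested. The difference between these groups of genes was not tested. The filter bears on these values, since Olfr568, Olfr585 and Olfr587-ps1 passed it only through the deletion libraries and Olfr571 and Olfr597 only through the controls. The 9 members were Olfr571, Olfr597, Olfr566, Olfr548-ps1 and Olfr560 on the lower side and Olfr585, Olfr568, Olfr587-ps1 and Olfr543 on the higher side.

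Olfr548-ps1, 371 kb below the element, had 21.4, 31.0 and 37.2 normalized counts in control animals and 0.747, 1.10 and 10.9 in the deletion libraries. Its groups did not overlap, and as for Olfr566 the deletion library of set B was the highest of the 3 (log2 fold change -3.10 ± 0.75, limma, adjusted p = 0.982). Olfr560 had 14.0, 51.7 and 33.7 in the controls and 0.747, 1.10 and 30.2 in the deletion libraries, where deletion 3 reached the control range (-2.64 ± 1.08, limma, adjusted p = 0.982). Olfr560 lies inside the span of Olfr78 on the same strand, and 44.1% of its 50-base stretches are shared, chiefly with that gene, so its count is uncertain. The differences of Olfr548-ps1 were -3.55 within set A and -1.56 within set B, and those of Olfr560 were -2.97 and -0.46. In the set-adjusted fit the log2 fold changes were -2.55 for Olfr548-ps1 and -1.71 for Olfr560, and neither was called.

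Olfr550 and Olfr552 were the other tested members whose groups did not overlap. Olfr550 had 103, 157 and 89.5 normalized counts in control animals and 52.3, 54.1 and 67.6 in the deletion libraries. Olfr552 had 80.6, 148 and 59.3 in the controls and 25.4, 45.3 and 51.9 in the deletion libraries. Both differed little between the library sets, by a log2 of 0.27 and 0.41 (B over A), and neither was called (log2 fold changes -0.96 ± 0.24 and -1.17 ± 0.38, limma, adjusted p = 0.982 for each). The 32 members not called in either fit ranged from -3.39 (Olfr566) to 0.74 (Olfr555), with a median of -0.72. In the set-adjusted fit they ranged from -2.69 to 1.30, with a median of -0.38 and 27 of 32 below 0.

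**Figure D3:**
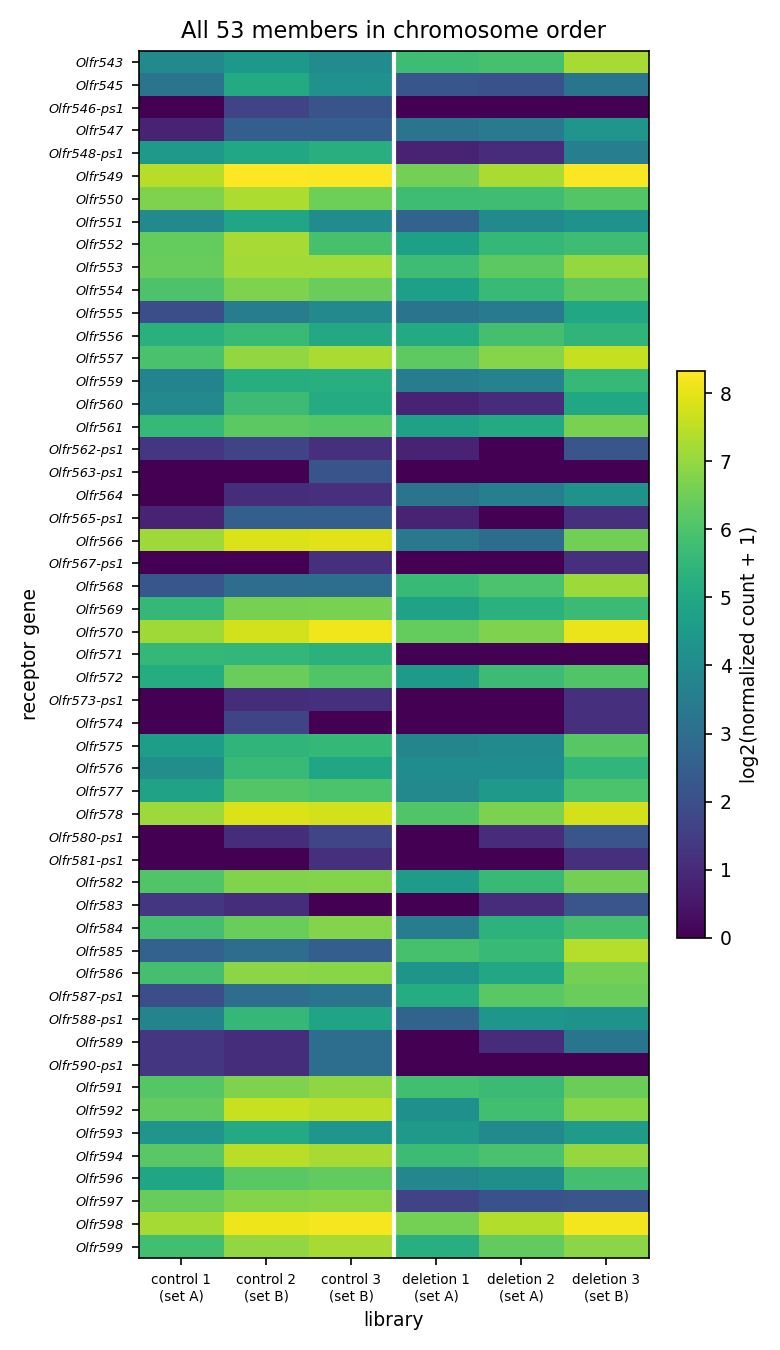
Rows are the 53 members in chromosome order, columns the 6 libraries with their library set, and the colour is log2(normalized count + 1). Olfr571 and Olfr597 turn dark in all deletion columns and Olfr568, Olfr585 and Olfr587-ps1 turn bright, while most other rows are brighter in control 2, control 3 and deletion 3 than in the remaining libraries.

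Levels of different receptors were compared per kb of annotated exon. In the controls, the tested members ranged from 3.59 (Olfr551) to 149 (Olfr570) normalized counts per kb, with a median of 20.7. The 5 highest means were 149 for Olfr570 (99.2 to 198 over the 3 libraries), 141 for Olfr549 (91.1 to 169), 118 for Olfr598 (71.5 to 146), 101 for Olfr566 (67.1 to 120.3) and 53.6 for Olfr578 (37.5 to 63.9). Within each control library, Olfr598 was below Olfr570 and Olfr549, Olfr566 was below Olfr598 and Olfr578 was the lowest of the 5, while Olfr570 and Olfr549 changed places between libraries. Olfr549, 361 kb below the element, had 172, 319 and 309 normalized counts in control animals and 94.1, 153 and 310.2 in the deletion libraries, and its groups overlapped (log2 fold change -0.64).

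Per kb, the control means of the members called higher in the set-adjusted fit were 5.41 for Olfr585, 6.21 for Olfr568, 6.32 for Olfr587-ps1 and 11.6 for Olfr543. The first 3 were under 10 normalized counts in every control and passed the filter only through the deletion libraries, so their low control level follows from how they were chosen. In the deletion animals the same genes had 89.1, 86.9, 67.0 and 59.4 normalized counts per kb, where Olfr598 had 89.8 and Olfr549 had 98.3. The annotated exons of Olfr585, Olfr568 and Olfr587-ps1 (1030, 942 and 948 bp) hardly exceed their coding sequences (954, 939 and 945 bp). Those of Olfr598 and Olfr549 measure 2026 and 1891 bp, with 957 and 948 bp coding, so these levels per kb are not strictly comparable. Olfr566 went from 101 in the controls to 17.5 per kb in the deletion animals, and Olfr597 from 37.1 to 1.12. Olfr551, the lowest in the controls at 3.59 per kb, had 2.31 in the deletion animals.

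**Figure D4:**
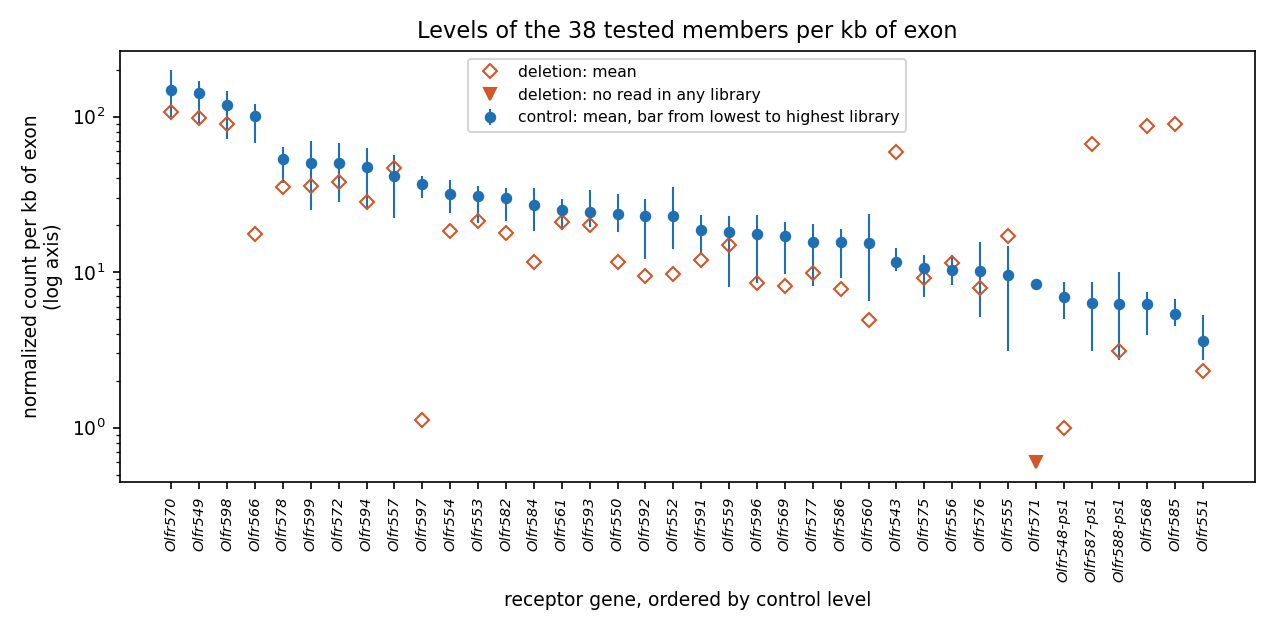
The x axis orders the 38 tested members by control level and the log y axis gives normalized counts per kb of exon, with the control mean as a filled point, a bar from the lowest to the highest control library and the deletion mean as an open diamond (a filled triangle marks no read). The 4 diamonds far above their control bars belong to Olfr543, Olfr587-ps1, Olfr568 and Olfr585, at control levels of 11.6 per kb or less.

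The summed normalized count of all 53 members was 2107, 3886 and 3727 in control 1, 2 and 3 and 1222, 1813 and 3663 in deletion 1, 2 and 3. Deletion 3 was nearly as high as control 2 and 3 of its set, and deletion 1 and 2 were below control 1 of theirs, so the groups overlapped. The mean was 3240.1 ± 985 in the controls and 2233 ± 1274 in the deletion animals (SD, n = 3). Without the 6 members called in either fit, the sums were 1953, 3691 and 3539.8 in the controls and 1026, 1569 and 3124 in the deletion libraries. Of the summed normalized count of the members, Olfr544, Olfr558 and Olfr600 to Olfr692 together, the members held 31.2% to 33.4% in the controls and 33.3% to 34.5% in the deletion libraries. As a share of all Olfr reads, they held 1.89%, 2.76% and 2.75% in the controls and 1.32%, 1.58% and 2.69% in the deletion libraries, where again the set B library of the deletion group stood with the set B controls.

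**Figure D5:**
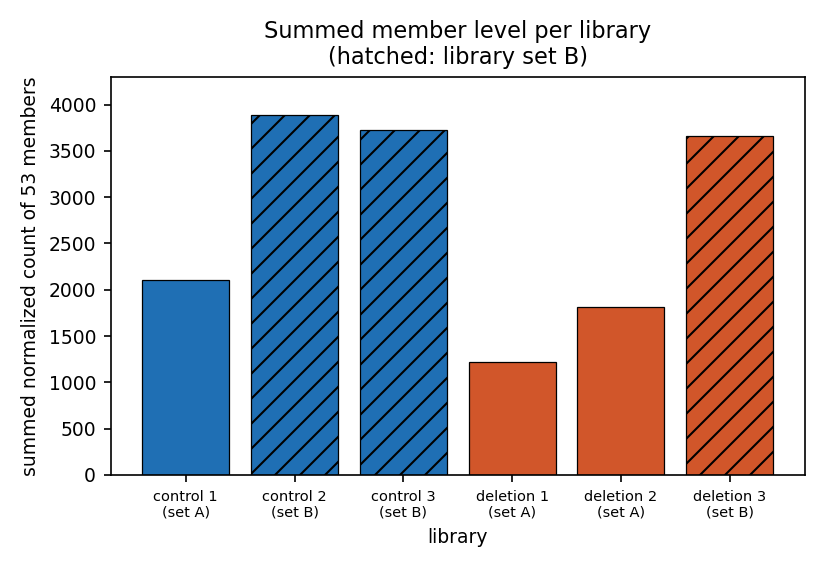
Bars give the summed normalized count of the 53 members in each library, controls in blue and deletion libraries in orange, hatched for library set B. Within set A both deletion bars (1222 and 1813) are below the control bar (2107), and in set B the deletion bar (3663) is close to the control bars (3886 and 3727).

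The members differed in how far they followed the library sets. Limma called 21 of the 38 higher in set B, against 5.3% of all genes tested, and 0 higher in set A, against 4.67%. The difference of set B over set A ran from a log2 of -0.05 (Olfr571) to 2.77 (Olfr560), and Olfr566 had 2.11. Olfr597 had 0.37 and Olfr556 had 0.01. In Olfr600 to Olfr692 the median was 1.22.

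The 15 members that were not tested were low throughout, with a highest value of 33.3 normalized counts (Olfr545 in control 2), and 12 of them had reads in both groups. Olfr564 had 0, 1.15 and 1.16 normalized counts in control animals and 8.22, 11 and 18.1 in the deletion libraries. Olfr547 had 0.739, 4.59 and 4.65 in the controls and 8.22, 9.94 and 19.3 in the deletion libraries. In both, every deletion library was above every control, and in a fit without the filter neither was called (limma, adjusted p = 0.844 and 1.00). Others of the 15, 3 members named as pseudogenes, were at 0 in every deletion library: Olfr590-ps1 had 1.15 to 6.98 normalized counts in control animals, Olfr546-ps1 0 to 3.49 and Olfr563-ps1 0 to 3.49, from 9, 5 and 3 reads in all. Such counts cannot show a difference at this depth.

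Genes that work with the receptors were read against the share of all genes called, 0.0442% lower and 0.0295% higher (1.26% and 1.44% at an unadjusted p under 0.05), at which lists of this size would hold few calls or none. Of 22 genes of olfactory transduction, 21 were found and tested, among them Gnal, Adcy3, the channel subunit Cnga2 and the neuronal marker Omp. Limma called 0 of them (0 at an unadjusted p under 0.05 and 0 by edgeR), with a median log2 fold change of -0.08. Of 22 regulators of receptor choice, among them the homeodomain factor Lhx2, its partner Ldb1 and the demethylase Kdm1a, limma also called 0 (0 at an unadjusted p under 0.05 and 0 by edgeR), with a median of 0.04. Of 5 dorsal and 5 ventral zone markers 0 were called by limma or edgeR (0 at an unadjusted p under 0.05), with medians of -0.12 and 0.05. The 7 markers of mature olfactory sensory neurons summed to between 392731 and 477805 normalized counts in control animals and between 354769 and 440159 in the deletion libraries, ranges that overlapped.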

How the data were processed

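The submitters' processing notes name STAR 2.6.0, DESeq2 and GRCm38.p6. Which program counted reads per gene, with which annotation and strand setting, is not given in the sources used here. The authors deposited 1 table of 40273 genes with, per the file headers, a normalized count (a signal that is never negative) for each of 6 libraries, a mean over all libraries, a log2 fold change coded as control over deletion with its standard error, a test statistic (a score), a p-value and an adjusted p-value. Whole reads (within 0.001 reads) were recovered from 100% of the nonzero values that the authors deposited. Between libraries of a group, chi-square per gene was 17.4 to 47.5, so none was a copy of another.

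The main test was limma 3.58.1 with trend in R 4.3.3 on log2(normalized count + 1), with the group as the single term. It covered the 20368 genes that reached 10 in 3 or more libraries, used Benjamini-Hochberg adjustment and a threshold of 0.05. Fold changes on this scale understate the change of low genes. Alternatives were edgeR 4.0.16 (quasi-likelihood, TMM) and DESeq2 1.42.0 on recovered reads, no filter, pseudocounts of 0.5 and 5, TMM rescaling, each library left out, the replicate number as a block, the library set as a term and each set alone. EdgeR tested 19953 genes and DESeq2 gave an adjusted p for 30898. Fits with fewer libraries kept the genes of the main filter, and a lone library of a group was assumed to vary like the others. Limma, edgeR and DESeq2 with the group as the single term were tried on simulated counts that held no difference between library sets. The fit with the set as a term was not tried in this way. Library sets were split at the largest gap in the number of genes with a read, and the first principal component (66.1% of variance) parted the same libraries.

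Positions, exon lengths and coding sequences came from GENCODE vM21 (GRCm38), in which 39985 gene identifiers were found without their version, and promoter windows from RefSeq. Distances run to the nearer gene end. The members and gene lists were chosen with earlier results of these data known. Values per library are given by rule for Olfr571, members called with or without the set term, the 5 tested members nearest to the element on each side, the 5 highest in the controls per kb and members at 0 in 1 group. Olfr547, Olfr548-ps1, Olfr550, Olfr552, Olfr560, Olfr564 and Olfr583 were added after their values were seen.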

Additional observations from a re-analysis of the deposited data

How the results depend on the processing

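The count of members called lower, 2 with limma, was 0 in set A alone and 3 in set B alone, and 0 to 4 when 1 library was left out (1 without control 1, 0 without control 2, 1 without control 3 and 4 without deletion 3). The count called higher, 0 with limma, was 2 without the filter, 4 with the library set as a term, 4 in set B alone and 4 with DESeq2. It was 3 with the replicate number as a block, and 0 to 1 when 1 library was left out (1 without deletion 3). Same-numbered libraries did not deviate together in every pair (correlations 0.65, -0.34 and 0.66). The sign followed the library sets: 0.50 to 0.66 for a control and a deletion library of the same set, -0.80 to -0.34 across sets. Control 2 and deletion 2 are of different sets, so these correlations cannot show whether the numbers pair the animals. The median log2 fold change of -0.66 ranged from -1.13 (without deletion 3) to -0.35 (without deletion 1) when 1 library was left out, and was -0.34 with the set as a term and -0.17 in set B alone. Signs turned for Olfr561 (0.47), Olfr570 (0.15), Olfr575 (0.66), Olfr576 (0.19) and Olfr598 (0.01) in set B alone, for Olfr572 without deletion 1 (0.01), and for Olfr576 with the set as a term (0.07) and without control 2 (0.02), none of them called. With 1 library left out, Olfr572 ranged from -0.80 to 0.01 and Olfr576 from -0.84 to 0.02. The cause of these changes was not tested. Over 17 named tested members and 16 alternatives, 238 of 272 fits kept the direction and the side of the threshold, 20 passed it newly, 6 lost it and 8 turned. Set A has 1 control and set B 1 deletion library, which limits both. Reads were few for the members in the group where they were low, 4 to 20 per library for the 4 higher genes in the controls.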
